A study of Mus musculus with 44 samples.

Results

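The granzyme cluster around Gzmb on mouse chromosome 14 is described here by the histone H3 lysine 4 methylation over the start sites of its 8 genes, Gzmb, Gzmc, Gzmf, Gzmn, Gzmg, Gzmd, Gzme and Mcpt8. They are 8 of the 27095 gene rows in the count table, and the Snai1 peaks within 100 kb of them were also read. Gzmb was chosen by its H3K4me1 reads, which were higher in every library of wild-type Snai1 cells than in any library of the other constructs, and the other genes as its neighbours. H3K4me1 levels that involve wild-type cells are therefore given as a description without a test, while H3K4me2, which the choice did not use, and mutant against empty vector were tested. The choice did not compare mutant with empty vector in H3K4me1, but it needed both to lie below wild type. That contrast is therefore not fully free of the choice at Gzmb.

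All libraries came from HPC7 cells, a mouse blood progenitor line kept in stem cell factor. The cells carried an MSCV-IRES-GFP retrovirus with mutant Snai1, with wild-type Snai1 or with no insert (empty vector). The mutation turns the phenylalanine at residue 5 into alanine and weakens binding to Lsd1, and every construct also carries GFP, on which cells were sorted 1 week after transduction and then grown. H3K4me1 and H3K4me2 were measured in 3 libraries per construct each, non-specific IgG in 2 wild-type libraries, and Snai1 itself in 4 technical replicates per construct that have 1 peak list between them. No source used here says that the 3 replicates were separate transductions, so p-values measure the spread between these libraries.

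Granzymes are serine proteases that cytotoxic lymphocytes store in granules and release into target cells together with perforin. Granzyme B cuts after aspartate and sets off apoptosis. It is also made by mast cells and some other blood cells. Gzmc to Gzmg and Gzmn are rodent duplicates with narrower use, and Mcpt8 encodes a protease of basophils. H3K4me1 marks enhancers and the flanks of active promoters, and H3K4me2 marks both. Snai1 is a zinc-finger repressor that binds E-boxes and recruits Lsd1, a demethylase that removes H3K4me1 and H3K4me2.

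All 8 genes lie on the minus strand between 56082163 and 56262334 of chromosome 14 (GRCm38.p6), a span of 180 kb. Gzmb is at the upper end, at 56258836 to 56262334, and Mcpt8 at the lower end, at 56082163 to 56085499. Neighbouring start sites of the RefSeq models are 12 to 36.8 kb apart, so 5 kb windows placed on these start sites, the width that the table's name states, would not overlap. The table itself gives no window positions. The start site used here for Gzmc, 56234657, lies inside its gene model of 56231397 to 56241647, so its counted window may lie elsewhere. RefSeq promoters (250 bases before to 50 after the start site, read 5′ to 3′ on the minus strand) are printed for Gzmb and Gzmc, whose H3K4me1 differed most between constructs. Gzmd and Gzme are printed as the closest pair of copies, and Mcpt8 as the only member promoter with the Snai1 E-box. They span chr14:56262285-56262584 for Gzmb, chr14:56234608-56234907 for Gzmc, chr14:56132544-56132843 for Gzmd, chr14:56120576-56120875 for Gzme and chr14:56085148-56085447 for Mcpt8. Capitals mark matches on either strand to the Snai1 E-box CAGGTG, the Runx motif TGTGGT, the cyclic AMP response element TGACGTCA, the AP-1 motif TGANTCA, the Stat motif TTCNNNGAA, the motif GATAA of the haematopoietic factor Gata2 and its relatives, and the core promoter box TATAAA, and no 2 of these matches overlap.
Gzmb: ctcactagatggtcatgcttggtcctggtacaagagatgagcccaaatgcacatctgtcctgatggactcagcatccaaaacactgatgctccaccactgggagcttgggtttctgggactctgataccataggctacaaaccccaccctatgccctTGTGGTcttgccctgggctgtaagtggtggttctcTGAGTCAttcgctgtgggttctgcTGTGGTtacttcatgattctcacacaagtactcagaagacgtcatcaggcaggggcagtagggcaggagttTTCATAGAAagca
Gzmc: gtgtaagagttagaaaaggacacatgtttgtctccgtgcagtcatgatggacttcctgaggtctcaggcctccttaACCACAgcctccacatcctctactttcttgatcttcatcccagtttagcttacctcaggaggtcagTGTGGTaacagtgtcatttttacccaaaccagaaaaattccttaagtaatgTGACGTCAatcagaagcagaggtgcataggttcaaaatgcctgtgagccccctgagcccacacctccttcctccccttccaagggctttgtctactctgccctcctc
Gzmd: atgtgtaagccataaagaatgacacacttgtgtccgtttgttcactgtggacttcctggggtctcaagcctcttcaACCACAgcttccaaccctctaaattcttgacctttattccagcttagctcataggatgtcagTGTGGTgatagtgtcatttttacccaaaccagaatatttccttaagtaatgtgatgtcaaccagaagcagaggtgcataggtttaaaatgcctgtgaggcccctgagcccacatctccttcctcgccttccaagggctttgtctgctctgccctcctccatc
Gzme: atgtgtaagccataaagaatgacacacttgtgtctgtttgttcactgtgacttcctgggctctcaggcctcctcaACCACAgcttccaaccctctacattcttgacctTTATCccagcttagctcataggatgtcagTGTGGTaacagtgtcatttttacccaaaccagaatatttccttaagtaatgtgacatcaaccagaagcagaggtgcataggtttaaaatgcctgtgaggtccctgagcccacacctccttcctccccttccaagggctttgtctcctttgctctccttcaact
Mcpt8: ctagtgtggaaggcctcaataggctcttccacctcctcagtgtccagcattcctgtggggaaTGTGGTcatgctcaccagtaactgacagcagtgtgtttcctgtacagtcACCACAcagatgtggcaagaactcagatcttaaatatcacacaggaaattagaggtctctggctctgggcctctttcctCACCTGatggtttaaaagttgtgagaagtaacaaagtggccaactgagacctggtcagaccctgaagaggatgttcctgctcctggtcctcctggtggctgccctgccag

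The Snai1 E-box CAGGTG was found in the promoter of 1 of the 8 genes, Mcpt8, 60 bases before its start site on the opposite strand, and in 20.2% of 32851 RefSeq promoters of the same length. TGTGGT was found in all members but Gzmn, and in 16.8% of all promoters. Gzmb has it 93 and 34 bases before the start site, with an AP-1 match at 58 bases before it and a Stat match at 38 bases after it. The full response element TGACGTCA occurs in Gzmc, Gzmf and Gzmg, against 1.79% of all promoters. Such matches describe letters in a window of 300 bases and no occupied site. The promoters of Gzmd and Gzme agree at 281 of 299 aligned bases (94.0%). How reads that map to both copies were counted is not given in the sources used here, so values of Gzmc, Gzmd, Gzme, Gzmf and Gzmg carry that uncertainty.

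Column totals were 4042976 to 8813537 reads for H3K4me1, 8694515 to 18199945 for H3K4me2, and 3355479 and 2714255 for the IgG libraries. Replicate 1 of each construct differed from replicates 2 and 3 in both marks, with a variance of 9.49 to 17.7 times counting error against 0.980 to 2.30 times between replicates 2 and 3. In empty-vector H3K4me1 the variance of replicates 2 and 3 was within sampling noise (0.980 times), and their sum entered as 1 sample, which gives n = 2. In the other groups replicates 2 and 3, at 1.18 to 2.30 times, were kept as separate samples, although they too were much closer to each other than to replicate 1. Where n = 3 is given, SD, SE and p may therefore understate the spread between independent cultures. Background also differed. The median window of 1482 olfactory (Olfr) and vomeronasal (Vmn) receptor genes, silent in blood cells, held 1.37, 2.95 and 2.73 reads per 1000000 reads of the library (CPM) of H3K4me2 in mutant libraries, 1.71, 1.42 and 1.67 in wild-type libraries and 1.73, 1.98 and 2.07 in empty-vector libraries. Levels are therefore also given relative to that median in the same library. The median of 15 progenitor marker windows was 45.5 to 116 times that level of H3K4me2 in mutant, 75.5 to 99.4 times in wild-type and 69.4 to 97.7 times in empty-vector libraries. Some markers were far lower. Erg, an ETS factor of blood stem cells, was at 1.75 to 2.6 times in mutant, 1.43 to 2.13 times in wild-type and 2.04 to 2.11 times in empty-vector libraries. Lmo2 was at 8.72 to 25.8 times in mutant, 6.63 to 13.9 times in wild-type and 7.4 to 9.7 times in empty-vector libraries. Kit, the stem cell factor receptor, was at 161 ± 3.2 CPM of H3K4me2 in mutant, 161 ± 8.8 in wild-type and 175 ± 6.3 in empty-vector cells (SD, n = 3 each).

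Gzmb was the gene of the cluster with the clearest signal. H3K4me1 over its start site was several times higher in wild-type Snai1 cells than in mutant or empty-vector cells, and the libraries of the other constructs overlapped. The window held 39, 51 and 43 reads in mutant libraries, 150, 183 and 186 reads in wild-type libraries and 37, 58 and 59 reads in empty-vector libraries. Scaled to depth this was 4.43, 9.48 and 10.6 CPM in mutant, 19.1, 36.2 and 34.4 CPM in wild-type and 5.22, 10.9 and 10.5 CPM in empty-vector libraries. Every wild-type library lay above all 6 others, which is what the choice of Gzmb used, and mutant and empty-vector libraries overlapped. In each construct replicate 1 was the lowest.

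Group means of Gzmb H3K4me1 were 8.18 ± 3.30 CPM in mutant cells (SD, n = 3), 29.9 ± 9.39 CPM in wild-type cells (SD, n = 3) and 7.97 ± 3.88 CPM in empty-vector cells (SD, n = 2). The fitted log2 fold change of wild type against empty vector was 1.93, or 3.80-fold, and 1 of 25728 windows tested had a higher one. For mutant against wild type it was -1.95, the lowest of all 25728 windows. Within replicate 1 the log2 difference in CPM of wild type from empty vector was 1.86, and within replicates 2 and 3 it was 1.72. For mutant against wild type the same differences were -2.10 and -1.82. In bulk chromatin, more signal per cell and a larger share of cells with the mark cannot be told apart.

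Relative to the silent-family median of its own library, Gzmb H3K4me1 was 3.0, 2.32 and 3.07 times as high in mutant, 7.5, 16.6 and 11.6 times in wild-type and 2.31, 3.63 and 3.28 times in empty-vector libraries. Among all windows of a library it ranked above 27.4%, 33.8% and 36.8% of them in mutant libraries and above 46.0%, 58.5% and 57.3% in wild-type libraries. Mutant and empty vector were not compared with each other by the choice, although both had to lie below wild type. For mutant against empty vector the log2 fold change was -0.03 (SE 0.419, adjusted p = 1.00, edgeR). Neither direction passed for any member there, and 0% of 25728 windows were called (DESeq2 called 0, and the unadjusted p was under 0.05 in 415).

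**Figure D1:**
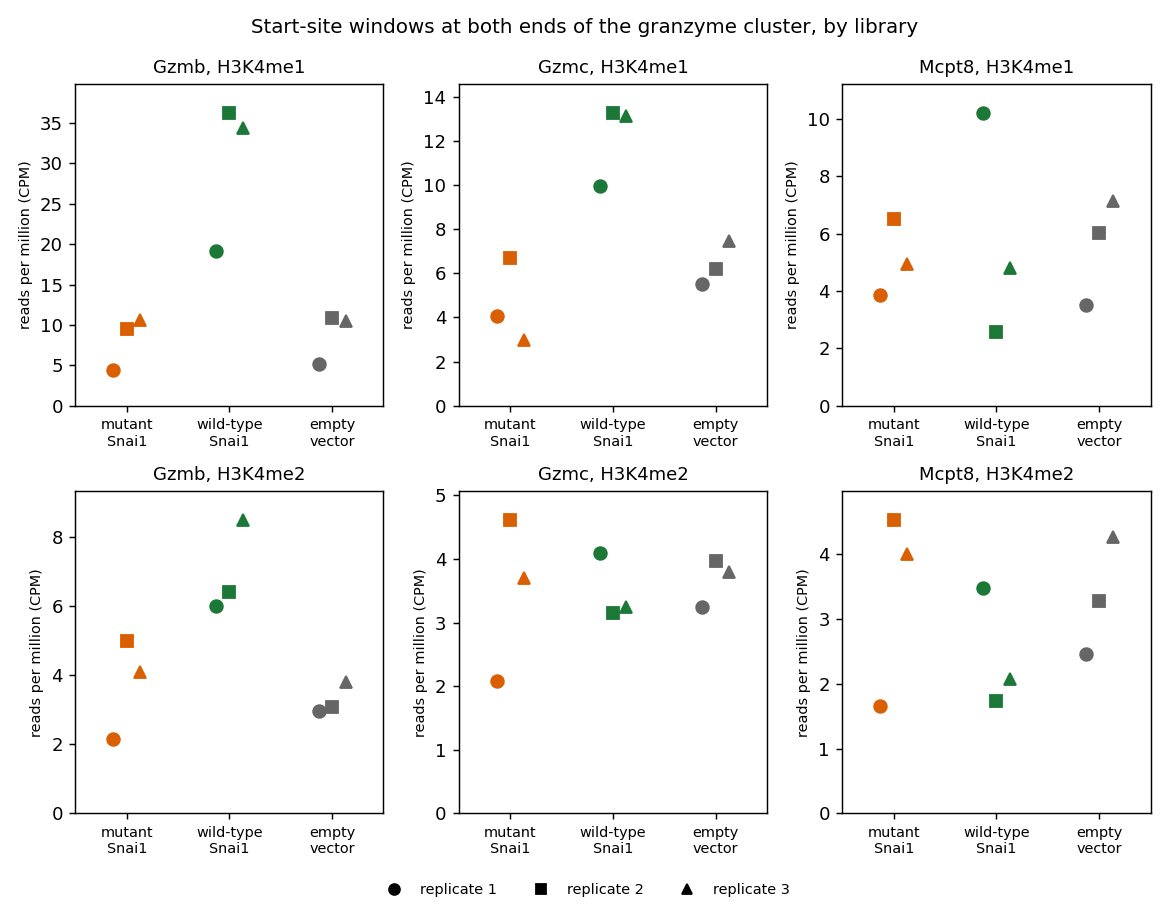
CPM over the start-site windows of Gzmb, Gzmc and Mcpt8 (columns) in H3K4me1 (top) and H3K4me2 (bottom), 1 point per library, with the marker shape giving the replicate number. The 3 wild-type libraries of Gzmb lie above all others in both marks, those of Gzmc in H3K4me1 only, and the single high wild-type point of Mcpt8 H3K4me1 is replicate 1 at 10.2 CPM.

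H3K4me2, which played no part in the choice, was also highest at Gzmb in wild-type cells, and it did not pass the test over all windows. The reads were 39, 54 and 42 in mutant libraries, 105, 63 and 86 in wild-type libraries and 41, 31 and 33 in empty-vector libraries. As CPM these are 2.14, 4.98 and 4.09 in mutant, 5.98, 6.41 and 8.47 in wild-type and 2.96, 3.08 and 3.80 in empty-vector libraries. The lowest wild-type library was above the highest library of either other construct, whereas mutant and empty-vector libraries overlapped. Means were 3.74 ± 1.45 CPM in mutant, 6.95 ± 1.33 CPM in wild-type and 3.28 ± 0.454 CPM in empty-vector cells (SD, n = 3 each).

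For wild type against empty vector, Gzmb H3K4me2 had a log2 fold change of 1.16 (SE 0.283), or 2.23-fold, with an unadjusted p of 0.00121 and an adjusted p of 0.446 (edgeR's quasi-likelihood test, Benjamini-Hochberg). Of 25742 windows, 40 had a higher fold change. For mutant against wild type the log2 fold change was -1.02 (SE 0.276, adjusted p = 0.503, edgeR), with 44 windows lower. For mutant against empty vector it was 0.14 (SE 0.293, adjusted p = 0.967, edgeR), a direction that turned to -0.091 with silent-family scaling, to -0.019 with a batch term and to -0.096 without mutant replicate 2. The background of calls was near nil: 0.00388% of windows in wild type against empty vector (1 window, with 1884 at an unadjusted p under 0.05 and 88 called by DESeq2) and 0% in mutant against wild type (2548 at an unadjusted p under 0.05, 72 called by DESeq2). With the replicate number as a block, wild type against empty vector gave 5 called windows in place of 1, and Gzmb was not among them (log2 1.14, adjusted p = 0.119, edgeR).

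The call on Gzmb H3K4me2 depended on the method. Wild type against empty vector passed with DESeq2 (log2 1.16, adjusted p = 0.0412), which left mutant against wild type at an adjusted p of 0.0861. Scaling to the silent families, chosen after seeing the data, gave adjusted p of 0.00502 for wild type against empty vector (log2 1.28, edgeR) and 0.00195 for mutant against wild type (log2 -1.37, edgeR). Within replicate 1 the log2 difference in CPM was 1.01 and within replicates 2 and 3 it was 1.12 for wild type against empty vector, and -1.47 and -0.71 for mutant against wild type. Without mutant replicate 1, mutant against wild type passed at log2 -0.78 (adjusted p = 0.0460, edgeR). Relative to the silent-family median, Gzmb H3K4me2 was 1.56, 1.69 and 1.5 times as high in mutant, 3.5, 4.5 and 5.06 times in wild-type and 1.71, 1.55 and 1.83 times in empty-vector libraries.

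Groups that do not overlap are common in these data, so Gzmb is read against that share. In H3K4me2, wild type lay above empty vector without overlap in 3.55% of windows and mutant below wild type in 3.79%. Gzmb was the single member in each. In H3K4me1 the shares were 5.94% for wild type above empty vector, with 3 members (Gzmb, Gzmc and Gzmf), and 4.58% for mutant below wild type, with 2 members (Gzmb and Gzmc). Those H3K4me1 counts come from the contrasts that chose Gzmb. No member lay below empty vector in wild type (8.55% of windows) or above wild type in mutant (4.24%) in H3K4me1. None separated mutant from empty vector, where 3.76% of windows were higher and 5.35% lower in H3K4me1, and 3.91% higher and 3.64% lower in H3K4me2. Taking both marks, 9 of 25645 windows had a log2 fold change of at least 1 in wild type against empty vector in each mark, among them Gzmb and Dact2, and no other window reached both of Gzmb's values. Because wild-type H3K4me1 chose Gzmb, that joint rank was largely set in advance and is a description only.

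**Figure D2:**
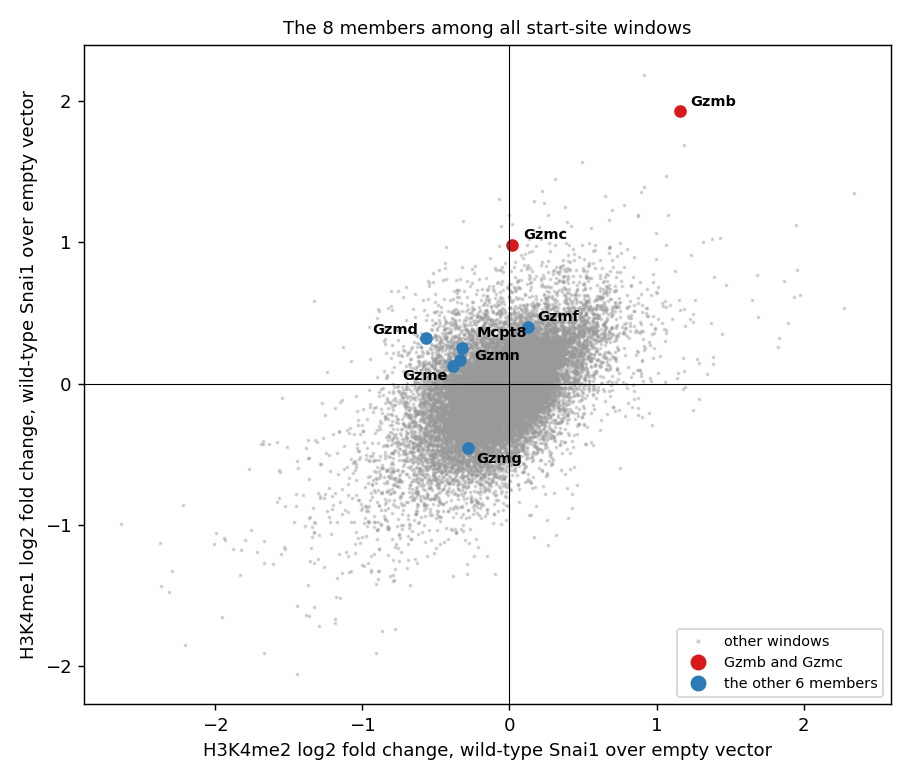
Log2 fold change of wild-type Snai1 over empty vector in H3K4me2 (horizontal) and H3K4me1 (vertical), 1 grey point per window, with Gzmb and Gzmc in red and the other 6 members in blue. Gzmb stands at 1.16 and 1.93, outside the cloud, Gzmc at 0.02 and 0.98, and the others lie inside it. The marks share cells and constructs, so the axes are not independent, and the vertical axis holds the H3K4me1 difference by which Gzmb was chosen.

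Gzmc, the neighbour 27.7 kb from the Gzmb start site, encodes granzyme C, found in mouse cytotoxic cells after prolonged activation. Its H3K4me1 was likewise highest in wild-type cells, at a lower level. The reads were 36, 36 and 12 in mutant, 78, 67 and 71 in wild-type and 39, 33 and 42 in empty-vector libraries, or 4.08, 6.69 and 2.97 CPM in mutant, 9.95, 13.3 and 13.1 CPM in wild-type and 5.51, 6.21 and 7.48 CPM in empty-vector libraries. The wild-type libraries lay above all others, and the lowest value was mutant replicate 3. The log2 fold change was 0.98 for wild type against empty vector, with 48 windows higher, and -1.41 for mutant against wild type, with 8 windows lower. For mutant against empty vector it was -0.43 (SE 0.336, adjusted p = 1.00, edgeR).

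H3K4me2 at Gzmc did not follow. It was 2.09, 4.61 and 3.70 CPM in mutant, 4.10, 3.15 and 3.25 CPM in wild-type and 3.24, 3.97 and 3.80 CPM in empty-vector libraries, with all 3 constructs overlapping. The log2 fold change of wild type against empty vector was 0.02 (SE 0.265, adjusted p = 0.996, edgeR). For mutant against wild type it was -0.15 (SE 0.264, adjusted p = 0.762, edgeR), and the log2 difference was -0.97 within replicate 1 but 0.38 within replicates 2 and 3.

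The other 6 members mostly stayed close to the silent-family median in both marks, with higher single values in H3K4me1. Over 54 values each, H3K4me1 was 1.39 to 10.2 CPM, with a median of 1.61 times the silent-family median (0.64 to 4.62 times). H3K4me2 was 1.28 to 4.98 CPM, with a median of 1.23 times (0.76 to 2.08 times). In wild-type H3K4me1, Gzmf ranked above 92.0%, 94.4% and 95.1% of the silent-family windows, and Gzmg above 78.9%, 19.8% and 62.3%. The windows of these 6 members rest on 7 to 80 reads in H3K4me1 and 13 to 61 reads in H3K4me2, so their values are imprecise. Replicate 1 also differed from the other replicates by more than counting error over all windows. At Mcpt8, wild-type H3K4me1 held 80, 13 and 26 reads in replicates 1, 2 and 3. Their H3K4me1 log2 fold changes for wild type against empty vector ran from -0.46 at Gzmg to 0.40 at Gzmf. For mutant against wild type they ran from -0.35 at Gzmf to 0.15 at Gzmg.

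Gzmf, next after Gzmc at 50.9 kb from Gzmb, had H3K4me1 of 6.81, 3.53 and 5.94 CPM in mutant, 6.64, 6.53 and 7.96 CPM in wild-type and 5.37, 6.40 and 4.45 CPM in empty-vector libraries. Wild type exceeded empty vector by a narrow gap there and overlapped mutant. Without mutant replicate 1 the log2 fold change of mutant against wild type was -0.70, against -0.35 with it. Gzmn, whose promoter lacks the Runx match, had 4.77, 6.50 and 8.16 CPM in mutant, 6.38, 5.34 and 5.37 CPM in wild-type and 4.09, 4.71 and 7.48 CPM in empty-vector libraries, which overlap. Gzmg, Gzmd and Gzme, close copies of one another, overlapped between all constructs in H3K4me1.

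Mcpt8, at the far end, had H3K4me1 of 3.86, 6.50 and 4.95 CPM in mutant, 10.2, 2.57 and 4.81 CPM in wild-type and 3.53, 6.03 and 7.12 CPM in empty-vector libraries. The group value for wild type rests on replicate 1. The log2 fold change of wild type against empty vector was 0.25 with all libraries and -0.43 without wild-type replicate 1, and that of mutant against wild type was -0.28 with all libraries and 0.40 without it.

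**Figure D3:**
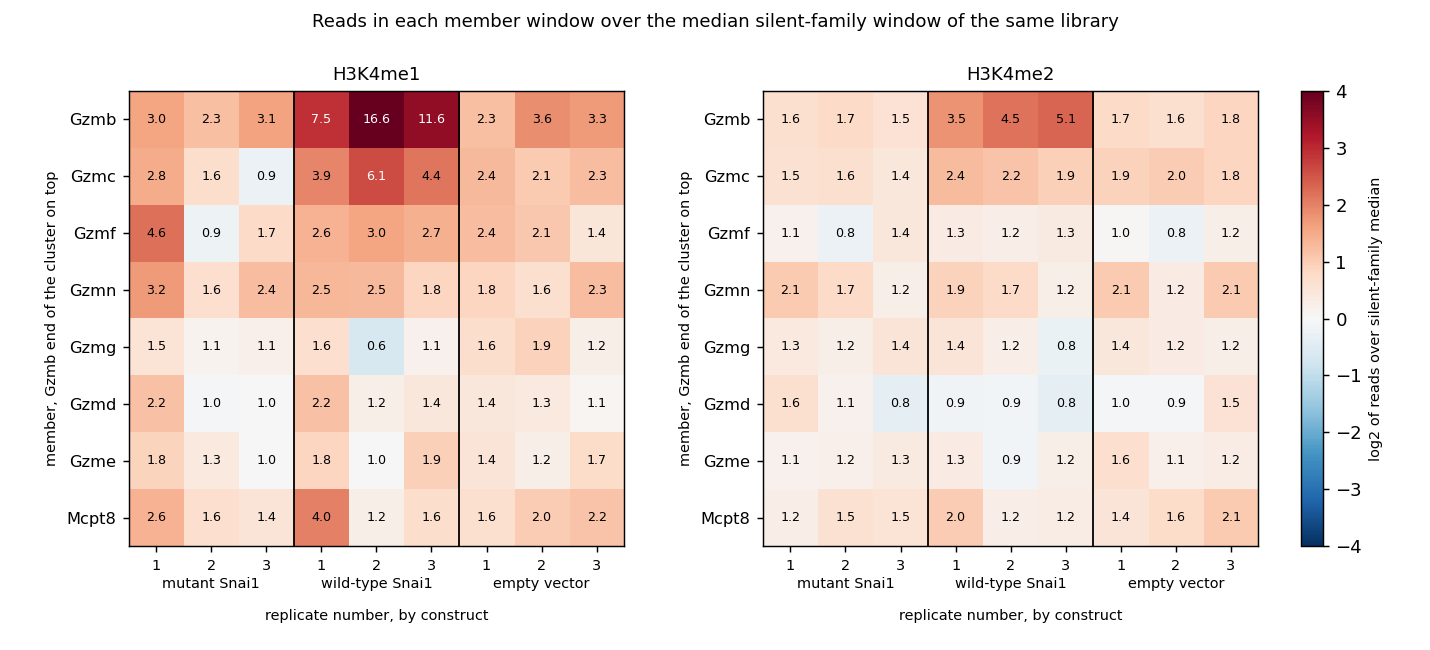
Reads in each member's window divided by the median silent-family window of the same library, printed in each cell and coloured on a log2 scale, for H3K4me1 (left) and H3K4me2 (right). Genes run from Gzmb at the top to Mcpt8 at the bottom, and columns are the 3 mutant, 3 wild-type and 3 empty-vector libraries. The wild-type block of Gzmb (7.5 to 16.6 in H3K4me1, 3.5 to 5.1 in H3K4me2) and the H3K4me1 wild-type block of Gzmc (3.9 to 6.1) stand out from cells mostly between 0.8 and 3.

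None of the other 7 members passed in H3K4me2 in any of the 3 comparisons between constructs. Gzmd had 2.14, 3.32 and 2.14 CPM in mutant, 1.54, 1.32 and 1.28 CPM in wild-type and 1.66, 1.88 and 3.11 CPM in empty-vector libraries. Its wild-type libraries were below all others without overlap. Gzme had 1.54, 3.41 and 3.51 CPM in mutant, 2.16, 1.32 and 1.97 CPM in wild-type and 2.74, 2.28 and 2.53 CPM in empty-vector libraries. Its wild-type libraries were below the empty-vector libraries and overlapped the mutant ones. Windows with wild type below empty vector without overlap made up 9.91% of all windows, and those with mutant above wild type 6.34%, so 2 members and 1 member are not far from the background.

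The log2 fold changes of Gzmd H3K4me2 were -0.57 for wild type against empty vector (SE 0.317, adjusted p = 0.772, edgeR) and 0.77 for mutant against wild type (SE 0.305, adjusted p = 0.503, edgeR). Over the 8 members the median log2 fold change was -0.30 for wild type against empty vector, beside -0.01 over all windows and -0.14 over the silent families. For mutant against wild type it was 0.35, beside 0.04 over all windows and 0.36 over the silent families. The silent-family windows moved with the members: within replicates 2 and 3 their median log2 difference of mutant from wild type was 0.80, and within replicate 1 it was -0.32. Under scaling to the silent families the log2 fold change of mutant against wild type became 0.12 at Gzme, 0.20 at Gzmg, 0.08 at Gzmn, -0.13 at Gzmf and -0.08 at Mcpt8, so no direction is given for these genes.

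Along the cluster the H3K4me1 fold change of wild type against empty vector was highest at Gzmb, which was chosen by its wild-type H3K4me1, and next at Gzmc. It was 1.93 at Gzmb, 0.98 at Gzmc and 0.40 at Gzmf, and at the 5 genes farther off it was between -0.46 and 0.33. Gzmf stood little above the highest of these, Gzmd, so no trend with distance is given. In H3K4me2, the same comparison gave 1.16 at Gzmb, 0.02 at Gzmc, 0.13 at Gzmf, -0.34 at Gzmn, -0.28 at Gzmg, -0.57 at Gzmd, -0.39 at Gzme and -0.32 at Mcpt8. Mutant against wild type in H3K4me2 was -1.02 at Gzmb, -0.15 at Gzmc, 0.21 at Gzmf, 0.40 at Gzmn, 0.56 at Gzmg and 0.77 at Gzmd, and then 0.47 at Gzme and 0.29 at Mcpt8. These are log2 fold changes, with standard errors of 0.264 to 0.358 in the last comparison. Scaling to the silent families turned the sign of that comparison at Gzmf and Mcpt8.

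**Figure D4:**
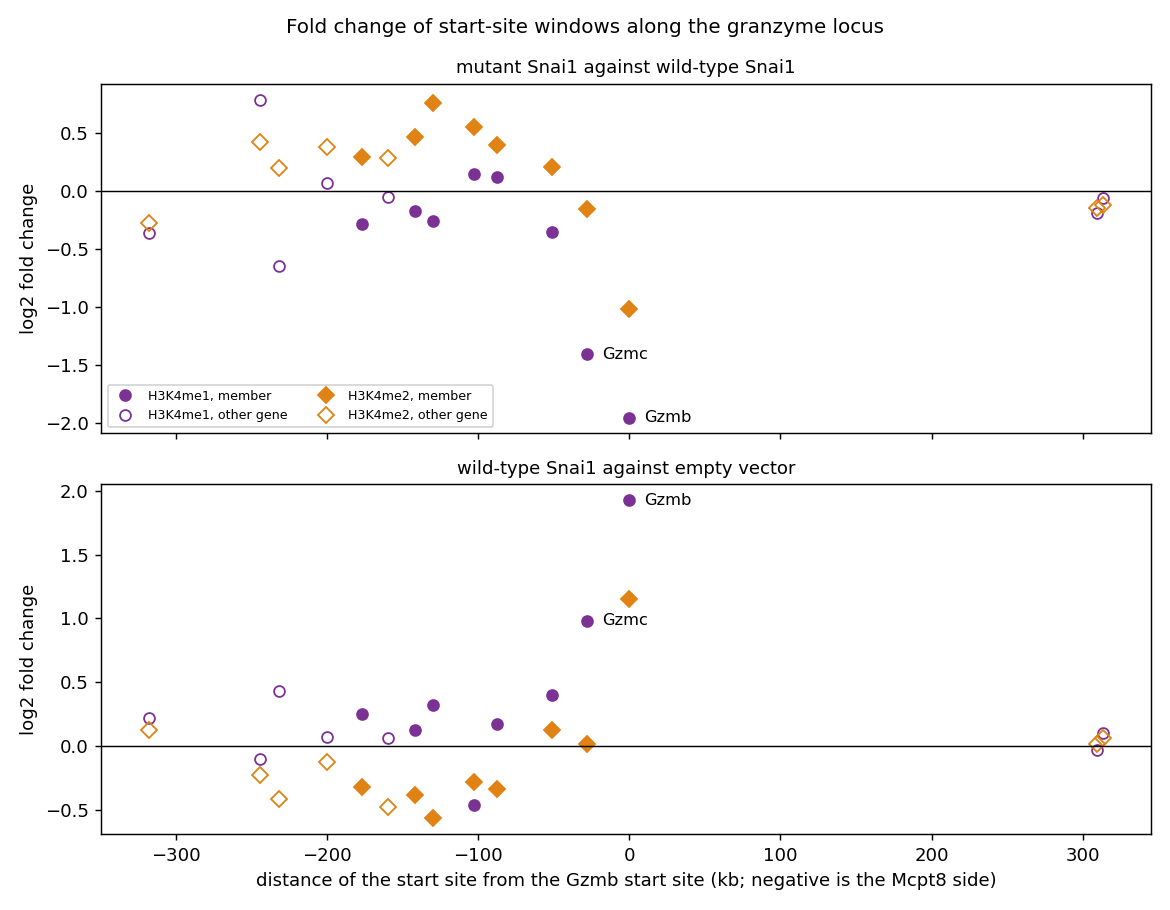
Log2 fold change of start-site windows against the distance of their start site from that of Gzmb in kb, for mutant against wild-type Snai1 (top) and wild-type Snai1 against empty vector (bottom). Filled symbols are the 8 members, open symbols other genes, circles H3K4me1 and diamonds H3K4me2. Gzmb and, in H3K4me1, Gzmc stand away from 0. Genes without a RefSeq promoter entry, among them Atp12a and Rnf17 beyond Gzmb, are not plotted.

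The neighbouring genes that are no members showed no called change. These were the 62 windows up to 1 Mb beyond the ends of the cluster, with Ctsg, which lies inside it, among them. Their median log2 fold change was 0.01 in H3K4me1 and 0.01 in H3K4me2 for wild type against empty vector, and 0 of them passed in H3K4me2. The smallest p in H3K4me2 were those of Ltb4r2 (log2 0.62) and Cideb (0.57) for mutant against empty vector, Irf9 (-0.26) and Gjb2 (-0.59) for wild type against empty vector, and Gja3 (0.75) and Ltb4r2 (0.55) for mutant against wild type (adjusted p = 0.503 to 0.952, edgeR). The nearest windows beyond the ends are Mcpt4 and Mcpt9 on the Mcpt8 side and Atp12a and Rnf17 on the Gzmb side. All 4 were at 0.571 to 3.75 times the silent-family median in H3K4me1, and their log2 fold changes of wild type against empty vector were 0.07 at Mcpt4, 0.43 at Mcpt9, -0.01 at Atp12a and -0.33 at Rnf17.

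The serine proteases of the adjoining mast cell chymase locus, Cma1, Cma2, Ctsg, Mcpt1, Mcpt2, Mcpt4 and Mcpt9, had a median of 0.09 in H3K4me1 and -0.19 in H3K4me2, and 0 of 7 passed in any tested comparison. In H3K4me2 the smallest p were those of Mcpt2 (log2 0.51) and Mcpt4 (0.26) for mutant against empty vector, Mcpt9 (-0.41) and Ctsg (-0.47) for wild type against empty vector, and Mcpt2 (0.70) and Mcpt1 (0.43) for mutant against wild type (adjusted p = 0.503 to 0.956, edgeR). Ctsg, cathepsin G of neutrophil granules, lies between Gzme and Mcpt8 and had 4.87 ± 2.12 CPM of H3K4me1 in mutant cells (SD, n = 3), 4.72 ± 1.55 CPM in wild-type cells (SD, n = 3) and 4.60 ± 1.52 CPM in empty-vector cells (SD, n = 2). Cma1, mast cell chymase, was well above the silent level in H3K4me1, with 47.9 ± 4.1 CPM in mutant cells, 60.8 ± 3.3 CPM in wild-type cells (SD, n = 3 each) and 53.0 ± 14 CPM in empty-vector cells (SD, n = 2). The granzymes on other chromosomes divided: Gzmm averaged 41.4 CPM of H3K4me1 in mutant, 55.8 CPM in wild-type and 55.6 CPM in empty-vector cells, whereas Gzma and Gzmk stayed at 1.21 to 3 times the silent-family median in every H3K4me1 library. Of these 3 genes, 0 passed. In H3K4me2 the log2 fold changes with the smallest p were -0.23 at Gzmm and 0.11 at Gzmk for mutant against empty vector, -0.24 at Gzmk and -0.21 at Gzma for wild type against empty vector, and -0.31 at Gzmm and 0.35 at Gzmk for mutant against wild type (adjusted p = 0.532 to 0.969, edgeR).

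On column totals, H3K4me2 in wild-type cells had fewer CPM than IgG at all 8 members, as it did at the median silent-family window. The IgG libraries spread their reads more evenly over the genome, so that 91.8% of 26313 windows were called on column totals, 55.7% lower and 36.1% higher (edgeR). Gzmb had 5.98, 6.41 and 8.47 CPM of H3K4me2 against 30.4 and 37.2 CPM of IgG, a log2 fold change of -2.28 (SE 0.267, adjusted p = 3.56e-06). Gzmc was at -3.25, and the other members were between -4.12 and -3.85, around the silent-family median of -3.76. On that scale Gzmb had the smallest deficit of the 8 members, and Gzmc the next. The result rests on the scaling: with DESeq2's size factors Gzmb was at -0.47 and did not pass (adjusted p = 0.155). Relative to the silent-family median of the same library, Gzmb was at 3.5, 4.5 and 5.06 times in wild-type H3K4me2 and at 1.76 and 1.31 times in IgG. Column totals therefore do not show that Gzmb lay below the non-specific background. For H3K4me1 no test was made, and Gzmb had 19.1, 36.2 and 34.4 CPM in wild-type cells against the same IgG values.

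No Snai1 peak lay within 100 kb of the cluster in any list, nor within 250 kb. The deposited lists hold 12037 peaks for mutant Snai1, 2929 for wild-type Snai1 and 137 for empty vector, and a peak within 100 kb was found for 66.8% of 25051 genes in the mutant list, 36.5% in the wild-type list and 2.76% in the empty-vector list. The nearest peak lay 258 kb below the cluster in both Snai1 lists. It was called at chr14:55823793-55824204 with the authors' fold enrichment of 14.6 and -log10 q of 41.7 in the mutant list, and at chr14:55823806-55824214 with 7.997 and 12.8 in the wild-type list. Above the cluster the nearest peaks were 309 kb away in the mutant list and 1137 kb away in the wild-type list, and empty vector had none nearer than 20296 kb. Each list pools technical replicates, so the difference in length between lists has no replicate check.

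The partners of granzyme B showed no called change in any tested comparison. Of the 14 measured genes for granules and killing, 0 passed in H3K4me2 in either direction, and the smallest p for mutant against wild type were those of Nkg7, a granule membrane protein (log2 -1.18, SE 0.341, adjusted p = 0.503, edgeR), and Prf1, perforin (log2 -0.68, SE 0.214, adjusted p = 0.503, edgeR). Prf1 H3K4me2 was 16.7 ± 2.84 CPM in mutant, 25.6 ± 2.37 CPM in wild-type and 23.8 ± 2.13 CPM in empty-vector cells (SD, n = 3 each). Nkg7 (-0.85) and Ctsc (-0.35) had the smallest p for mutant against empty vector, and Tnfsf10 (0.21) and Stxbp2 (0.19) for wild type against empty vector (log2, adjusted p = 0.800 to 0.952, edgeR). Of 12 inhibitors and substrates of granzyme B, 0 passed. Serpinb9, its intracellular inhibitor, was at log2 0.25 for wild type against empty vector (SE 0.121, adjusted p = 0.692, edgeR) and -0.29 for mutant against wild type (SE 0.121, adjusted p = 0.503, edgeR). Casp8 was second in both (0.16 and -0.22), and Serpinb1a was at -0.90 for mutant against empty vector (log2, adjusted p = 0.508 to 0.952, edgeR). Of 19 factors reported to act on Gzmb, 0 passed. Id2, an inhibitor of E proteins, was at log2 0.67 (SE 0.172, adjusted p = 0.446, edgeR), and Batf, an AP-1 family factor, at 0.50 (SE 0.165, adjusted p = 0.497, edgeR), for wild type against empty vector. Zeb2 (0.62) and Batf (0.42) led for mutant against empty vector, and Stat5a (-0.33) and Irf4 (0.54) for mutant against wild type (log2, adjusted p = 0.503 to 0.952, edgeR).

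Markers of other cells that make granzymes were read beside Gzmb. Of 20 T and NK cell markers 0 passed in H3K4me2, and their summed level was 163 to 198 CPM in mutant, 175 to 195 CPM in wild-type and 178 to 207 CPM in empty-vector libraries, which overlap. In H3K4me1 it was 545 to 566 CPM in mutant, 565 to 628 CPM in wild-type and 553 to 701 CPM in empty-vector libraries. Gene by gene, the H3K4me2 log2 fold change of wild type against empty vector was above 0 at 9 of 20 (median -0.02). That of mutant against wild type was above 0 at 13 of 20 (median 0.14). Cd3e, a chain of the T cell receptor complex, had 15.3 ± 0.47 CPM of H3K4me1 in mutant and 18.9 ± 1.76 CPM in wild-type cells (SD, n = 3 each), and 16.1 ± 0.86 CPM in empty-vector cells (SD, n = 2). Cd4, the helper T cell coreceptor, had 28.4 ± 8.69 CPM in mutant and 14.6 ± 6.51 CPM in wild-type cells (SD, n = 3 each), and 27.3 ± 8.48 CPM in empty-vector cells (SD, n = 2). In H3K4me2 the smallest p were those of Zap70 (log2 -0.57) and Cd8b1 (0.33) for mutant against empty vector, Cd4 (-0.76) and Trbc1 (-0.53) for wild type against empty vector, and Zap70 (-0.55) and Cd4 (0.57) for mutant against wild type (adjusted p = 0.503 to 0.952, edgeR). Ncr1, an NK cell receptor, stayed within 1.25 to 2.10 times the silent-family median in every H3K4me1 library. Trac, a T cell receptor gene, was highest in wild-type cells without overlap in both marks. Its H3K4me1 was 47.0 to 73.0 CPM in mutant, 73.4 to 79.2 CPM in wild-type and 47.3 to 65.4 CPM in empty-vector libraries. Its H3K4me2 was 8.11 to 8.52 CPM in mutant, 9.77 to 10.5 CPM in wild-type and 6.56 to 9.73 CPM in empty-vector libraries.

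Of 18 mast cell and basophil markers 0 passed in H3K4me2. Their summed level was 715 to 723 CPM in mutant, 804 to 854 CPM in wild-type and 714 to 786 CPM in empty-vector libraries, highest in wild-type cells without overlap. A few strong windows weigh most in that sum, among them Cpa3 and the progenitor markers Kit and Gata2. Marker by marker, the log2 fold change was above 0 at 11 of 18 for wild type against empty vector (median 0.10). For mutant against wild type it was above 0 at 8 of 18 (median -0.09). In H3K4me1 the sums overlapped, at 707 to 917 CPM in mutant, 800 to 921 CPM in wild-type and 697 to 846 CPM in empty-vector libraries. Cpa3, mast cell carboxypeptidase, averaged 70.9 ± 33.5 CPM of H3K4me2 in mutant, 140 ± 46.2 CPM in wild-type and 80.4 ± 40.9 CPM in empty-vector cells (SD, n = 3 each). Ms4a2, a chain of the IgE receptor, averaged highest in mutant cells, with 9.62 ± 3.96 CPM of H3K4me2 in mutant, 6.53 ± 0.562 CPM in wild-type and 4.92 ± 1.79 CPM in empty-vector cells (SD, n = 3 each). So did Hdc, which makes histamine, with 14.5 ± 4.22 CPM in mutant, 9.82 ± 1.56 CPM in wild-type and 10.1 ± 2.95 CPM in empty-vector cells (SD, n = 3 each). Fcer1a, another chain of that receptor, averaged 5.15 ± 0.800 CPM in mutant, 3.61 ± 0.339 CPM in wild-type and 5.07 ± 1.34 CPM in empty-vector cells (SD, n = 3 each). Within that list Il1rl1, the IL-33 receptor, was at log2 0.68 (SE 0.187, adjusted p = 0.446, edgeR) and Cpa3 at 0.89 (SE 0.401, adjusted p = 0.656, edgeR) for wild type against empty vector. Ms4a2 (0.89) and Il1rl1 (0.42) led for mutant against empty vector, and Cpa3 (-1.11) and Cd200r3 (-0.72) for mutant against wild type (log2, adjusted p = 0.503 to 0.952, edgeR). The part of mast cell features in the Gzmb values was not tested.

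The cell line's own markers and housekeeping genes gave no called window in H3K4me2 either, 0 of 15 in each list. Among the progenitor markers the smallest p were those of Lmo2 (log2 1.55) and Lhx2 (0.57) for mutant against empty vector, Spi1 (-0.18) and Erg (-0.40) for wild type against empty vector, and Lmo2 (1.45) and Lhx2 (0.56) for mutant against wild type (adjusted p = 0.503 to 0.952, edgeR). Among the housekeeping genes they were those of Hprt (-0.20) and Actb (-0.14) for mutant against empty vector, Tbp (0.33) and Ppia (0.23) for wild type against empty vector, and Pgk1 (-0.26) and Tubb5 (-0.36) for mutant against wild type (adjusted p = 0.513 to 0.952, edgeR). In H3K4me1, for mutant against empty vector, the smallest p belonged to Mcpt1 (log2 0.70) and Mcpt2 (0.46) of the locus proteases, Gzmm (-0.42) and Gzma (-0.16) of the granzymes elsewhere, and Tgm1 (-0.59) and Rec8 (0.50) of the flanking windows. Ctsc (-0.57) and Tnfsf10 (-0.41) led the granule genes, Serpinb9b (-0.63) and Serpinb6b (-0.27) the inhibitors and substrates, and Stat5b (-0.25) and Tbx21 (-0.39) the factors. Zap70 (-0.50) and Il2rb (-0.49) led the T and NK cell markers, Ms4a2 (0.77) and Hdc (0.45) the mast cell and basophil markers, and Lmo2 (0.36) and Lhx2 (0.30) the progenitor markers. Of the housekeeping genes, Actb was at 0.18. All of these had an adjusted p of 1.00 (edgeR).

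The windows whose H3K4me1 pattern was most like that of Gzmb over 8 samples were Ift74 (Pearson r = 0.974), Hjurp (0.973), Ss18 (0.971), Anxa11 (0.969) and Syap1 (0.968), out of 14561 windows compared on log2(CPM + 1). Their differences between constructs were much smaller than that of Gzmb. Syap1 averaged 35.4 CPM in mutant, 51.8 CPM in wild-type and 36.2 CPM in empty-vector cells, and Hjurp 190.3 CPM in mutant, 233.1 CPM in wild-type and 191.4 CPM in empty-vector cells. Of the 5, Anxa11 is on chromosome 14. The samples share constructs and the offset of replicate 1, and the list was picked for its likeness, so no test is given.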

How the data were processed

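H3K4me1, H3K4me2 and IgG reads were deposited as raw counts per start-site window, 1 row per Entrez gene ID. Subread, featureCounts and the builds GRCm38 and mm10 are named in the submitters' processing notes, without versions. The deposited peak lists give, per the submitters' processing notes from MACS2, a fold enrichment (a ratio to local background) and a -log10 of p and q per peak. Symbols, positions and promoters came from RefSeq tables of GRCm38.p6, which matched 25204 of 27095 rows (93.0%), and all 8 members matched.

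Rows without reads (20) or equal to an earlier row (31) were left out. A quasi-likelihood model of edgeR 4.0.16 (in R 4.3.3) was fitted per mark to all constructs, after filterByExpr and TMM scaling, and two-sided p-values were adjusted by Benjamini-Hochberg over all windows, with calls at 0.05. All 8 members passed the filter in both marks. The printed SE of a log2 fold change was derived from the test, as its absolute value divided by the square root of the F statistic. Printed CPM are on column totals. H3K4me2 over IgG was tested on column totals. In counts simulated for wild type against empty vector in H3K4me2 over 25722 windows, 82% of windows changed 2-fold and 100% of those changed 4-fold were called. The simulated libraries had the same relative spread in every window and no offset between replicates, and windows with few reads were not changed. These shares therefore check the code and do not give the chance of a call in the real libraries. Alternatives were DESeq2 1.42.0, column totals, TMM within chromosomes, no filter, a replicate block, a batch term, only 2 constructs, each library left out, and scaling to silent families. Deviations of same-numbered libraries from their group means correlated at 0.167 to 0.589 between mutant and empty vector and at 0.162 to 0.334 between wild type and empty vector, so replicate numbers, taken from the labels, pair the libraries there. Between mutant and wild type the deviations correlated at -0.213 to 0.262 and show no pairing. Column totals give the depth, and reads per window and the number of libraries limit the precision.

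Members and gene lists were chosen with earlier results of these data known. All members were named in every comparison. No list gene passed, so the 2 with the smallest p in each list were named for each tested comparison, except some that are not reported here, and the 5 windows most like Gzmb needed a mean of 10 CPM. Dact2, and the levels of Cd3e, Cd4, Ncr1, Trac, Kit, Erg, Lmo2, Ctsg, Cma1, Gzmm, Prf1, Cpa3, Ms4a2, Hdc and Fcer1a, were added after their values were seen.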

Additional observations from a re-analysis of the deposited data

How the results depend on the processing

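Of the Gzmb results, H3K4me2 in wild type against empty vector and in mutant against wild type kept its direction under every alternative (log2 1.09 to 1.28 and -1.37 to -0.92). It passed for wild type against empty vector with DESeq2 (1.16) and silent-family scaling (1.28), and for mutant against wild type with silent-family scaling (-1.37), so members called there were 1, against 0 otherwise. Leaving out 1 library gave 0.99 to 1.28 and -1.25 to -0.78, with 0 to 1 members called in the second. Mutant against empty vector had no stable direction: H3K4me2 was -0.091 with silent-family scaling, -0.019 with a batch term and -0.10 to 0.38 with 1 library left out. H3K4me1 was 0.031 with TMM within chromosomes and -0.40 to 0.24 with 1 library left out. The causes were not tested. Over all windows, H3K4me2 calls in mutant against empty vector, wild type against empty vector and mutant against wild type were 8, 88 and 72 with DESeq2, 15, 62 and 51 with silent-family scaling and 19, 89 and 117 with a batch term. With only the 2 compared constructs wild type against empty vector gave 0 and mutant against wild type 2. With 1 library left out they were 0 to 620, 0 to 719 and 0 to 4289, the highest without mutant replicate 1 (620 and 4289) and without empty vector replicate 1 (719). H3K4me1 calls in mutant against empty vector were 1 with a batch term. With the replicate block, H3K4me2 calls were 0, 5 and 12, and Gzmb H3K4me2 was at 1.14 (adjusted p = 0.119, edgeR) for wild type against empty vector and -1.04 (adjusted p = 0.166, edgeR) for mutant against wild type. The block changed no call on a member. Mutant and wild-type libraries share only a number, with deviations that correlated between -0.213 and 0.262. Silent-family scaling shifted the H3K4me2 median of all windows by -0.13, 0.12 and -0.25 in these comparisons. Over IgG, all 8 members were called in every alternative but DESeq2, which called 7. The Snai1 peak count of 0 held at 50 and 250 kb and at a -log10 q of at least 5. A window of 7 to 186 reads limits what can be seen at these genes.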
